A study of Mus musculus with 2 samples.

Results

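The mRNAs of 9 genes of the unfolded protein response and the integrated stress response were followed across the cells of the mouse colon lamina propria: Atf4, Ddit3, Xbp1, Hspa5, Herpud1, Trib3, Dnajb9, Sdf2l1 and Ppp1r15a. They were chosen by symbol, and all 9 were found among the 31053 features listed for each library. Single-cell RNA-seq (10x Genomics) had been performed on lamina propria cells labelled cd11b+. They came from wild-type (WT) animals and from animals labelled LncRNA17Rik KO, the long noncoding RNA that the study calls lncLy6c. The mice were 8 weeks old, cells of several male mice were pooled into each library, and there was 1 library per genotype, with no other treatment or allele named for either group. The KO strain was kept on a C57BL/6J background, and no Cre driver that would confine the deletion to a cell type was named for it. No feature symbol matched the label of the deleted RNA, so the knockout itself was not checked here. With 1 library per genotype there was no replicate check and no test between genotypes, and every interval below is a 95% interval of counting error alone.

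The endoplasmic reticulum (ER) folds secreted and membrane proteins, and an overload of unfolded protein is sensed by the proteins IRE1, ATF6 and PERK. IRE1 splices the Xbp1 mRNA so that it encodes an active transcription factor, which together with cleaved ATF6 raises ER chaperones and degradation factors; PERK and the other eIF2α kinases slow translation while the mRNA of Atf4 is translated more, and ATF4 in turn raises Ddit3 (CHOP), Trib3 and Ppp1r15a (GADD34), whose product reverses the phosphorylation of eIF2α. Plasma cells, which secrete antibody in bulk and are abundant in the gut lamina propria, depend on Xbp1 to expand their ER. Counts of unique molecular identifiers (UMIs) at the 3′ end of mRNAs, as here, do not show Xbp1 splicing, and they do not show how much ATF4 protein was made.

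The deposited matrices held 3185 WT and 3020 KO barcodes. For WT the study's legend counts several times as many cells, so the shares of WT cells given here describe the deposited barcodes alone. After the study's cell filters, 2597 WT cells with 18994564 UMIs (median 5073 per cell) and 2514 KO cells with 22331342 UMIs (median 6564.5) remained, and 1 barcode was shared between the libraries. Clusters were built without the 9 genes and named from fixed markers, so every cell type name below means cells like that type; 21 of 25 clusters received a name and the other 4 are called by their leading genes. Cells outside the expected CD11b gate were present. B, plasma, T, epithelial and stromal-like cells made up 33.0% of WT and 8.51% of KO cells. Itgam, the gene of CD11b, stood at 3.53 to 41.4 CPM (a gene's UMIs scaled to a total of 1000000) in these cells in WT, at 146 in WT natural killer-like cells, at 251 in WT resident macrophage-like cells and at 784 in WT eosinophil-like cells. Dendritic cells of the cDC1-like class, not counted in the shares above, were as low in Itgam, at 40.1 in WT and 51.0 in KO. They made up 2.54% of WT and 8.07% of KO cells. KO mature dendritic-like cells stood at 21.6. Plasma-like cells numbered 227 in WT (8.74% of cells) and 5 in KO (0.199%), so levels in them are described for WT, and totals over a whole library are not compared between genotypes for genes that these cells carry. Inflammatory monocyte-like cells lay mostly in one cluster in WT (349 of 451 cells) and in another in KO (314 of 382 cells).

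The promoters of the 9 genes were searched for the letters of textbook stress elements. RefSeq windows (GRCm38.p6, 250 bases before to 50 after the annotated start, 300 bases) were available for all 9 genes and were searched on both strands for 4 motifs. The ER stress element ERSE (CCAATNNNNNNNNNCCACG) was found in 1 of the 9 windows, that of Hspa5, and in 0.119% of 32851 windows genome-wide. ERSE-II, the letters ATTGG and CCACG with 1 base between, was found in Herpud1 and in 0.0365% of all windows. The core of the XBP1 and ATF6 element UPRE (TGACGTG) was found in Hspa5 and in 2.01% of all windows, and the core of the C/EBP-ATF response element CARE, read by ATF4 and CHOP (TGATGNAA), in Trib3 and Herpud1 and in 3.97% of all windows. No match overlapped another, and a match is a description of letters and not of binding. Elements with other letters or outside these windows were not searched for, so a window without a match does not show that the gene lacks such an element. The 3 windows that hold a match are printed 5′ to 3′ on the strand of the gene with the matched letters in capitals, followed by that of Xbp1, which held none of the 4. Their positions are chr2:34771840-34772139 on the plus strand for Hspa5, chr8:94386179-94386478 on the plus strand for Herpud1, chr2:152344011-152344310 on the minus strand for Trib3 and chr11:5520391-5520690 on the plus strand for Xbp1.
Hspa5: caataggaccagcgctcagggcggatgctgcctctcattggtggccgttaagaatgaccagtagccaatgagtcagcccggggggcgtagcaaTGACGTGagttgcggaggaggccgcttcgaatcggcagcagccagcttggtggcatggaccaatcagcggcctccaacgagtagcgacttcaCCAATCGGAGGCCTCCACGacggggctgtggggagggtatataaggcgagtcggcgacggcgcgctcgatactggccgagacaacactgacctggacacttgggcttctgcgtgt
Herpud1: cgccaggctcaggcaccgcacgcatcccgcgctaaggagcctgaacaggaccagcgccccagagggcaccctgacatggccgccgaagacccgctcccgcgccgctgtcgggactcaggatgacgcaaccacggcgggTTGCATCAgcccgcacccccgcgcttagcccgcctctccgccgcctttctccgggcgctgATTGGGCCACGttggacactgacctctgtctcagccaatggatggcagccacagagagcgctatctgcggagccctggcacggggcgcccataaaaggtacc
Trib3: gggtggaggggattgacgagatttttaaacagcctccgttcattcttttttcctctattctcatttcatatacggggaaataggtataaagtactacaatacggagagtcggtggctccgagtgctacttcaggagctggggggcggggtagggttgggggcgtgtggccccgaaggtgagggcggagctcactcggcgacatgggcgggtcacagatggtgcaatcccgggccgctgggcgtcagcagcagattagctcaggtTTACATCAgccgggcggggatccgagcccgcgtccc
Xbp1: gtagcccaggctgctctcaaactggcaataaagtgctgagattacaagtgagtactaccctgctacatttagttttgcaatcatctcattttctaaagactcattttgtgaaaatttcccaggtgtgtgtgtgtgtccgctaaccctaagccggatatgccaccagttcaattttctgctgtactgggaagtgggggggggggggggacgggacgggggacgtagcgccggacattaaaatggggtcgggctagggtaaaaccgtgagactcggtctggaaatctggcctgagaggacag
In Hspa5 the upstream capitals are the UPRE core, at -157 to -151 from the start, and the downstream capitals the ERSE, at -65 to -47. Herpud1 holds a CARE core on the opposite strand at -112 to -105 and the ERSE-II at -52 to -42, and the CARE core of Trib3 lies on the opposite strand at 15 to 22 after the RefSeq start. The start of the GENCODE gene model differs for some of the genes: for Trib3 it lies further downstream, so that this match is upstream of it, and for Hspa5 further upstream, so that the ERSE lies inside it.

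Levels by cell type were set side by side gene by gene, since 3′ counts do not compare one gene with another. Among cell groups with at least 20 cells (15 in each library), Xbp1 was highest in WT plasma-like cells, at 2093 CPM (8492 UMIs, interval 2049 to 2138). These cells held 76.9% of the 11046 Xbp1 UMIs of the WT library. Next came stromal-like cells at 301 and the cluster led by Gm26917 and Gm42418 at 261, and B-like cells, the precursors of plasma cells, were lowest at 76.4. In the KO library the highest level was that of stromal-like cells at 259 and the lowest again that of B-like cells at 25.4. The 5 KO plasma-like cells carried 202 Xbp1 UMIs, or 1412 CPM. After each cell was thinned to 1000 UMIs, 80.3% of 223 WT plasma-like cells had an Xbp1 UMI (99.1% unthinned), against 13.7% of WT T-like and 7.29% of WT B-like cells.

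**Figure D1:**
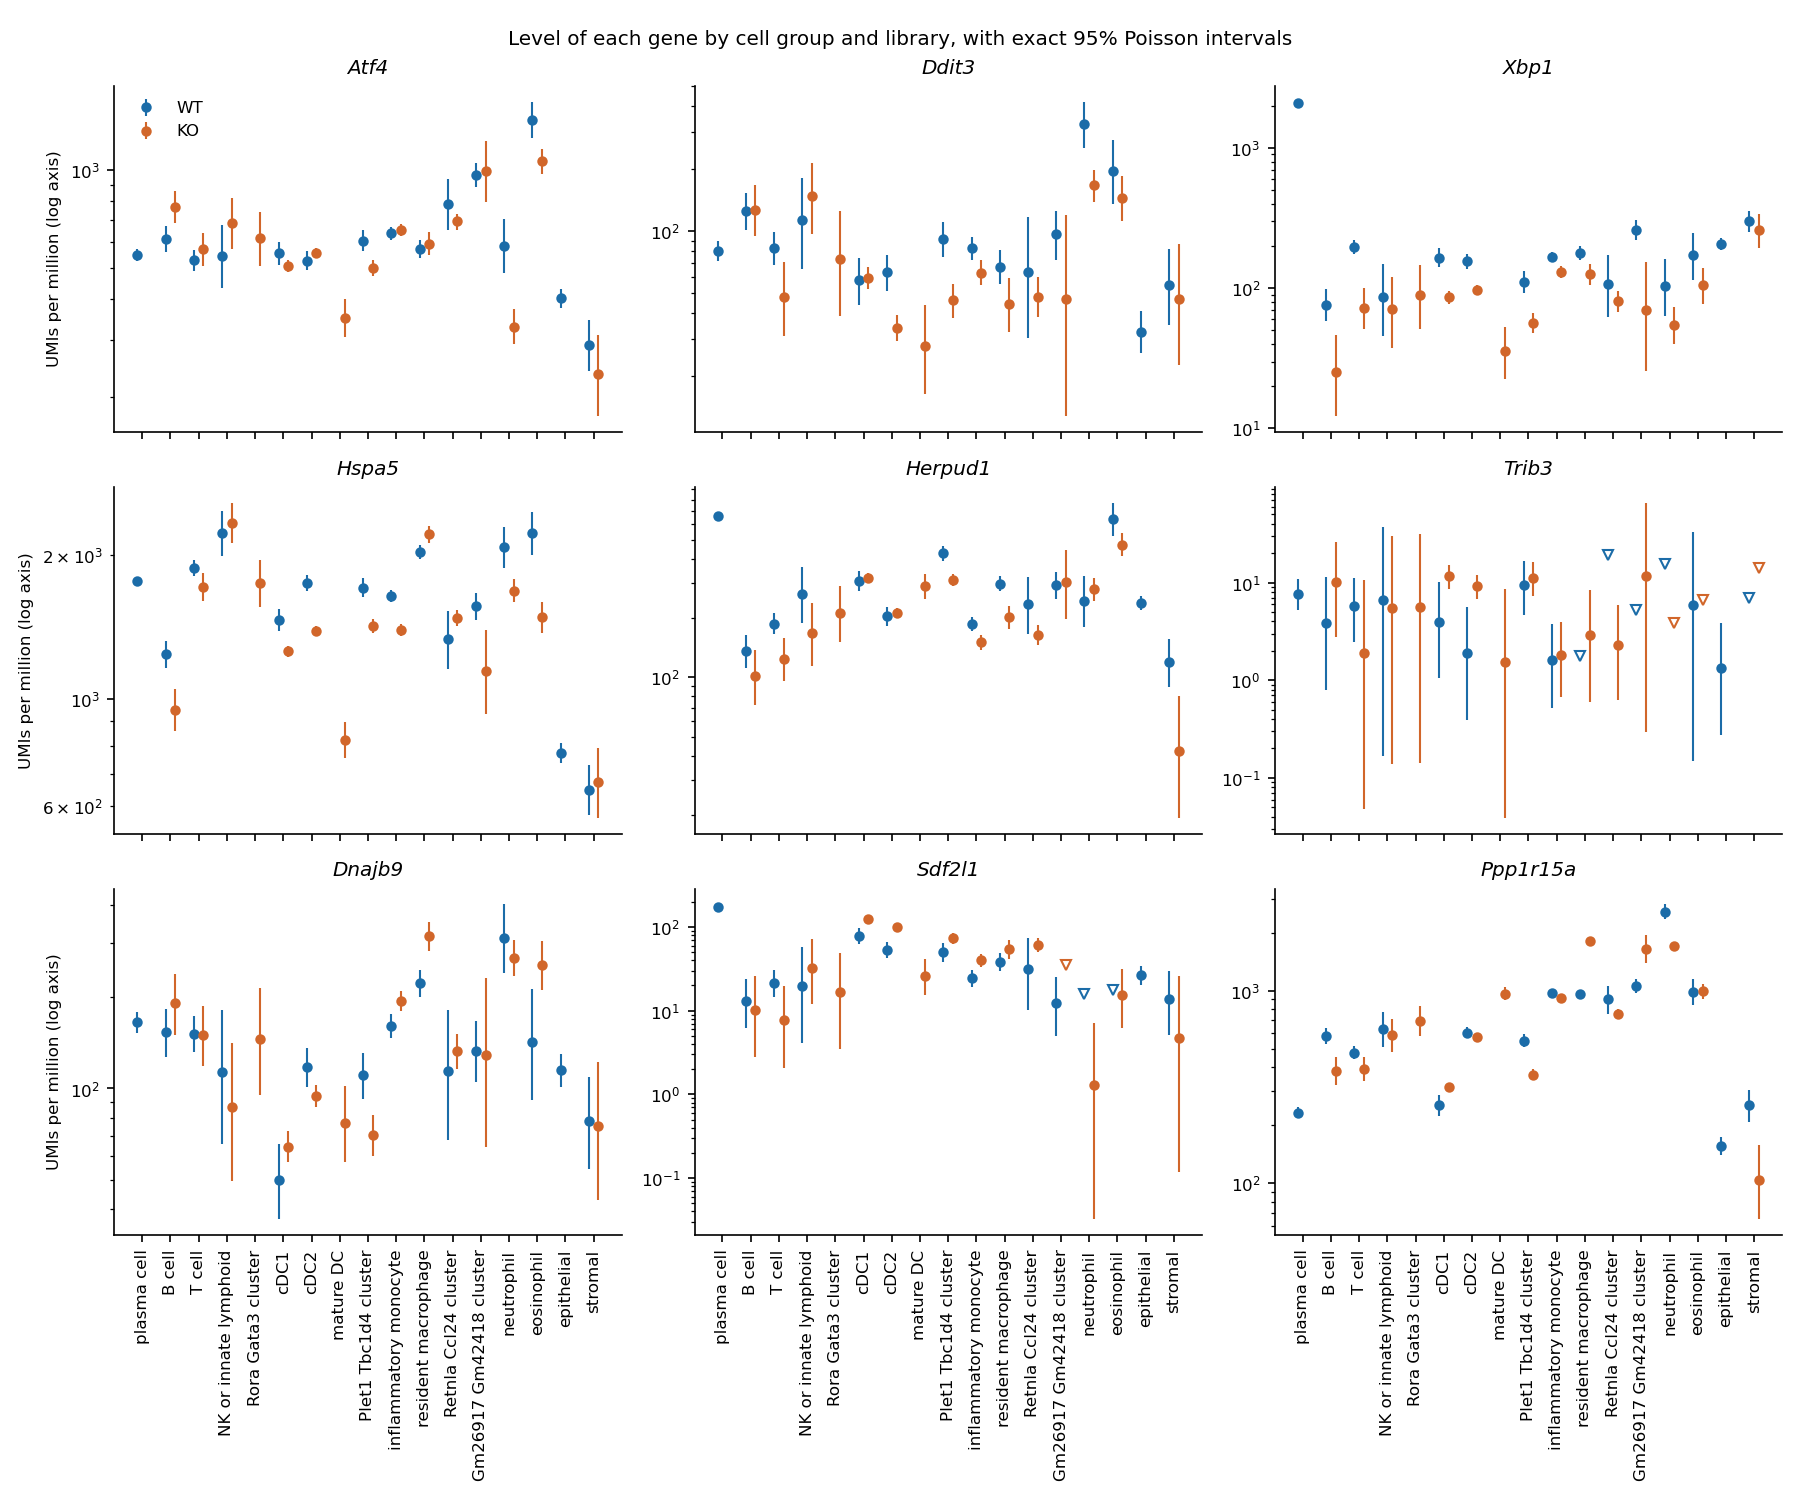
CPM (log axis, a separate scale for each gene) of the 9 genes in each marker-named or gene-named cell group of at least 20 cells, WT in blue and KO in orange; bars are exact 95% Poisson intervals and open triangles mark the upper limit that a count of 0 allows. Xbp1 stands at 2093 in WT plasma-like cells and at 301 or below in every other group plotted, whereas Ppp1r15a and Ddit3 are highest in WT neutrophil-like cells, at 2567 and 329.

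The genes for ER chaperones and degradation factors differed in where they were highest. Hspa5 encodes BiP, the main ER chaperone, and was abundant in every group, from 649 CPM in stromal-like to 2220 in eosinophil-like cells of WT and from 673 to 2329 (natural killer-like) in KO. Sdf2l1, a component of ER chaperone complexes, was by contrast narrow. It stood at 172 in WT plasma-like cells, 78.3 in cDC1-like and 53.0 in cDC2-like cells, the dendritic cells that take up antigen, and at 0 UMIs in WT neutrophil-like and eosinophil-like cells, where a count of 0 allows up to 15.7 and 17.8 CPM. In the KO library, without a plasma-like group of sufficient size, the highest level was that of cDC1-like cells at 123, with 0 UMIs in the Gm26917 Gm42418 cluster and 1 UMI in 258 neutrophil-like cells. Herpud1, which helps to retrotranslocate misfolded proteins for degradation, was highest in WT plasma-like cells at 659 and in WT eosinophil-like cells at 635, whose intervals overlap (635 to 685 and 521 to 768). Dnajb9 (ERdj4), a BiP co-chaperone that restrains IRE1, was highest in WT neutrophil-like cells at 313 and in KO resident macrophage-like cells at 317, and was lowest in cDC1-like cells in both libraries, at 49.9 and 64.4.

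Among the genes of the ATF4 branch, Atf4 was highest in eosinophil-like cells and Ddit3 in neutrophil-like cells in both libraries. Atf4 stood at 1425 CPM in WT (240 UMIs) and 1061 in KO (483 UMIs) in eosinophil-like cells, and was lowest in stromal-like cells, at 290 and 235. Neutrophil-like cells held 584 CPM of Atf4 in WT and 330 in KO. Eosinophil-like cells were shallow (median 739.5 and 970 UMIs) and only 51 WT and 197 KO cells reached 1000 UMIs. Of those, 62.7% and 63.5% had an Atf4 UMI, against 45.1% and 44.0% of resident macrophage-like cells. The Gm26917 Gm42418 cluster was close, with an Atf4 UMI in 58.3% of 228 WT and 58.1% of 31 KO cells at that depth. Its Atf4 level was 963 CPM in WT and 994 in KO. The KO interval (794 to 1229) includes the 1061 of KO eosinophil-like cells. Ddit3 stood at 329 in WT and 166 in KO neutrophil-like cells, followed in WT by eosinophil-like cells at 196, and was lowest in epithelial-like cells of WT at 32.7 and in mature dendritic-like cells of KO at 27.7. Trib3, a pseudokinase that ATF4 and CHOP raise and that feeds back on ATF4, was near the limit of detection, with 70 UMIs in the WT library and 153 in the KO library. Of the 70 WT UMIs, 31 (44.3%) were in plasma-like cells. Ppp1r15a ranged from 156 in WT epithelial-like to 2567 in WT neutrophil-like cells, and from 103 (stromal-like) to 1815 (resident macrophage-like) in KO.

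Ordered by level, most neighbours could not be told apart. Of 14 neighbouring pairs of groups in the order, the intervals overlapped in all 14 for Ddit3 and Trib3 in each library, in 12 (WT) and 13 (KO) for Xbp1 and in 11 and 9 for Ppp1r15a. Across the 13 groups present in both libraries, Pearson's r of the log2 levels between libraries was 0.74 for Xbp1, 0.83 for Ddit3 and Sdf2l1, 0.84 for Atf4, 0.85 for Dnajb9, 0.88 for Hspa5 and Ppp1r15a, 0.89 for Herpud1 and 0.30 for Trib3. These are descriptions over groups of the same 2 libraries.

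In plasma-like cells the 9 genes did not move as a block: Xbp1, Sdf2l1, Trib3 and Herpud1 were higher than in the other WT cells, Ppp1r15a was lower, and the position of the other 4 depended on whether immunoglobulin UMIs were counted in the total. Against all other WT cells, a gene was called where the sides held at least 20 UMIs together and differed by at least 1 on the log2 scale. Of the 9 genes, 4 were called higher and 1 lower, where 5.16% of the 12928 genes tested were called higher and 43.2% lower and the median of all genes was -0.82. Xbp1 stood at 2093 against 171 CPM in the other cells (log2 ratio 3.61, interval 3.55 to 3.68) and Sdf2l1 at 172 against 32.5 (2.41, 2.24 to 2.58). Trib3 (1.55, 0.82 to 2.27) and Herpud1 (659 against 247, 1.42) followed. The remaining log2 ratios were 0.24 for Dnajb9, 0.20 for Hspa5, 0.06 for Ddit3 and -0.06 for Atf4. Ppp1r15a was lower, at 232 against 659 (-1.50, -1.60 to -1.41). Immunoglobulin UMIs stood at 392424 CPM in WT plasma-like cells, which lowers every other gene there. With immunoglobulin and mitochondrial genes left out, the median of all genes shifted by 0.64, Xbp1 reached 4.34, Sdf2l1 3.13, Trib3 2.27 and Herpud1 2.14, Dnajb9 0.97, Hspa5 0.92 and Ddit3 0.79, Atf4 turned to 0.67, and Ppp1r15a at -0.78 was no longer called.

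**Figure D2:**
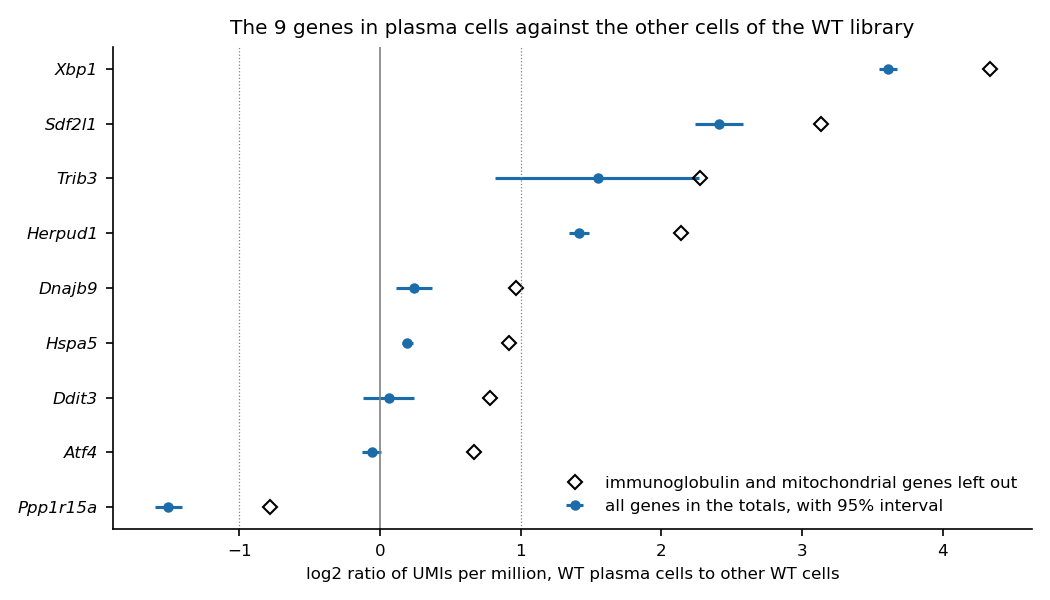
Log2 ratio of CPM in WT plasma-like cells to all other WT cells for the 9 genes; filled points use all genes with exact 95% intervals, open diamonds leave immunoglobulin and mitochondrial genes out of the totals, and dotted lines mark the threshold of 1. Xbp1, Sdf2l1, Trib3 and Herpud1 lie above the threshold on either scale, while Ppp1r15a lies at -1.50 on the first and -0.78 on the other.

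The wider pathway in plasma-like cells was read from lists of genes, beside the same background. Of 20 ER chaperones and folding enzymes, 14 were called higher and 0 lower (median log2 ratio 1.76), led by Fkbp11 (4.81), the thioredoxin-like Txndc5 (1088 against 69.9 CPM, 3.96), Pdia4 (3.95) and Creld2 (3.53). Of 16 genes of ER-associated degradation, 10 were called higher and 0 lower (median 1.40), with Derl3 at 192 against 3.15 (5.93) and the mannosidase-like Edem2 (3.44) and Edem1 (2.72). Of 22 genes of translocation into the ER and signal peptide cleavage, 16 were called higher and 0 lower (median 1.42), among them the signal peptidase subunits Sec11c (3.02), Spcs2 (2.30), Spcs1 (2.22) and Spcs3 (2.22). Among the 5 sensors and proteases of the unfolded protein response 1 was called higher, Atf6 (188 against 84.5, 1.15). Of the 11 eIF2α kinases and related factors 1 was called higher, Eif2ak3, which encodes PERK (149 against 43.6, 1.78), and 3 lower, including Eif2ak4 (-1.88). The 30 ATF4 and CHOP targets split, with 9 called higher and 8 lower (median 0.60). Chac1, which degrades glutathione (95.6 against 7.63, 3.65), and Phgdh of serine synthesis (167 against 14.6, 3.52) were higher, whereas the stress protein Nupr1 (-5.03) and the cystine transporter Slc7a11 (-3.46) were lower.

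Within WT plasma-like cells, a cluster of 43 cells led by immunoglobulin genes and genes of dividing cells such as Hist1h2ap and Rrm2 was set against the main cluster of 184 cells. Sdf2l1 was higher in the cycling cells, at 234 against 149 CPM (log2 ratio 0.65, 0.43 to 0.88), and Xbp1 lower, at 1563 against 2299 (-0.56). The only call among the 9 genes was Ppp1r15a, lower at 111 against 280 (-1.33), where 6.5% of 7950 genes were called lower and the median of all genes was 0.38. Of the 17 dissociation-linked genes described below, 9 were called lower and 0 higher in the same comparison (summed level 3252 against 5317 CPM), and their part in it was not tested. Atf4 stood at 0.07, Hspa5 at -0.25, Dnajb9 at -0.27, Ddit3 at -0.34 and Herpud1 at -0.36. Leaving out immunoglobulin and mitochondrial genes, a setting chosen after seeing the data, shifted the median by -0.46. Xbp1 was then called lower too (-1.04), Sdf2l1 stood at 0.17 with an interval that included 0 (-0.05 to 0.40), and Ppp1r15a at -1.81. On that scale Atf4 turned to -0.41, and Hspa5 (-0.73), Dnajb9 (-0.75), Ddit3 (-0.82) and Herpud1 (-0.83) were also lower with intervals below 0, none past the size of a call.

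Neutrophil-like cells were high in Ppp1r15a, Ddit3 and Dnajb9 in both libraries and had almost no Sdf2l1. In WT, 3 of the 9 genes were called higher than in all other cells and 3 lower, where 10.7% of genes were called higher and 54.5% lower. Ppp1r15a stood at 2567 against 548 CPM (log2 ratio 2.23, 2.10 to 2.36), Ddit3 at 329 against 74.7 (2.14, 1.75 to 2.50) and Dnajb9 at 313 against 143 (1.13, 0.74 to 1.50). The Dnajb9 call was lost without immunoglobulin and mitochondrial genes (0.98) and with each library clustered alone (0.46), and in KO by the mean over cells (0.84). Those called lower were Xbp1 (104 against 586), Sdf2l1 and, by the call rule alone, Trib3. A Trib3 count of 0 at this depth allows up to 15.7 CPM, above the 3.72 of the other cells, so no difference in Trib3 was detectable in WT. The other cells here include the plasma-like cells, which held 76.9% of the Xbp1, 59.0% of the Sdf2l1 and 44.3% of the Trib3 UMIs of the WT library; the median WT group stood at 167 CPM of Xbp1. Hspa5 (log2 ratio 0.39) and Herpud1 (-0.45) were not called. The KO library, of the other genotype, called the same 3 genes higher, Ppp1r15a at 1.43, Ddit3 at 1.66 and Dnajb9 at 1.14, and Sdf2l1 and Trib3 but not Xbp1 lower, where 10.3% of genes were called higher and 54.7% lower. The KO Trib3 call also rested on 0 UMIs. That count allows up to 3.83 CPM, beside 6.85 over the whole KO library, so a difference below the size of a call remains possible. The ER chaperones ran low, with 17 of 20 called lower in WT (median -2.04) and 18 of 20 in KO (median -2.28), against medians of all genes of -1.15 and -1.14. Of the 22 translocation genes 16 and 18 were called lower, and of the ATF4 and CHOP targets 4 of 30 were called higher and 20 lower in WT and 5 and 17 of 28 in KO. Eosinophil-like cells had higher levels of Atf4 (log2 ratio 1.35 in WT and 0.93 in KO) and Ddit3 (1.36 and 1.41) than the other cells of their library. The Atf4 ratio in KO was below the size of a call. Of all genes, 12.9% were called higher and 46.7% lower in these cells in WT, and 15.4% and 36.5% in KO. Neutrophil markers summed to 9224 CPM in WT and 7118 in KO eosinophil-like cells, beside 1668 and 1775 for the eosinophil markers. Their part in these levels was not tested.

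Genes that tissue dissociation is known to raise were set beside Ppp1r15a. None of the 9 genes is on this list of 17 immediate early genes. Their summed level was 24921 CPM in neutrophil-like, 18508 in eosinophil-like and 14934 in resident macrophage-like cells of WT, and 4740 in plasma-like cells, where 11 of the 17 were called lower and 0 higher, with Ier3 (-3.70), Nr4a1 (-3.04), Junb (-2.92) and Dusp1 (-2.58) lowest, beside 43.2% of all genes called lower. In WT neutrophil-like cells 7 of the 17 were called higher and 2 lower, beside 10.7% and 54.5% of all genes. In KO the sum was highest in the Rora Gata3 cluster of 21 cells (19565), followed by resident macrophage-like cells (17315), where Ppp1r15a was highest. The part of dissociation in the level of Ppp1r15a was not tested.

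**Figure D3:**
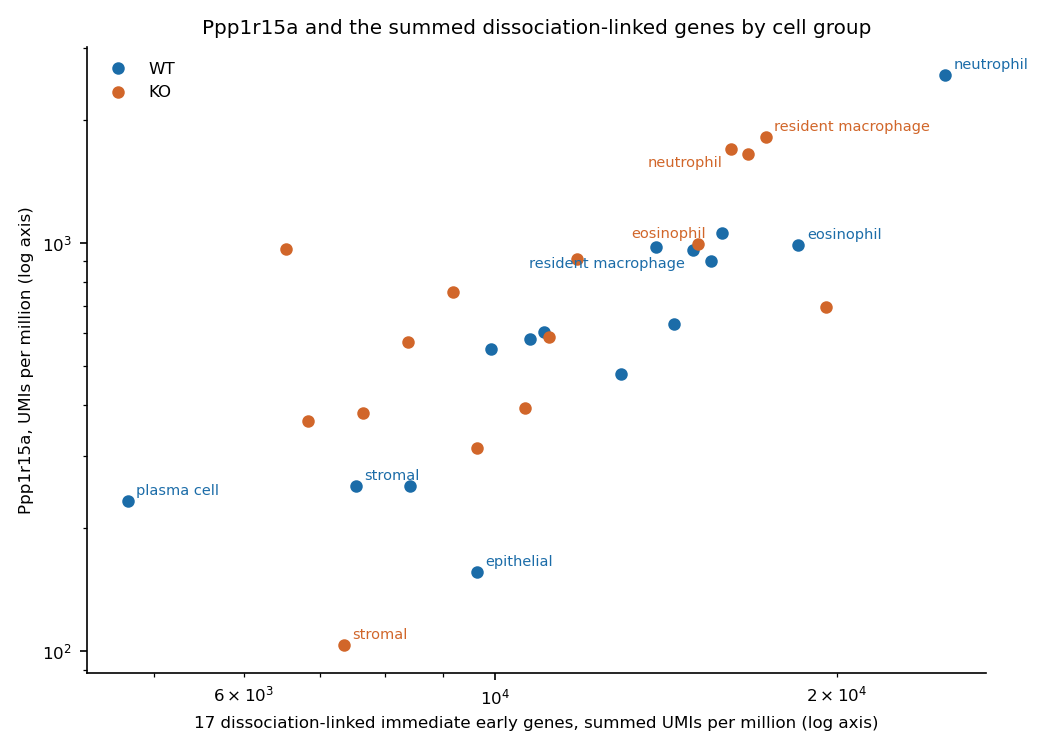
Ppp1r15a against the summed level of 17 dissociation-linked immediate early genes, each in CPM on log axes, with a point for each cell group of at least 20 cells in WT (blue) and KO (orange). WT neutrophil-like cells lie at the top right (24921 and 2567) and WT plasma-like cells at the far left (4740 and 232).

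Between genotypes, the 9 genes were compared within 13 groups that held at least 20 cells in each library. Xbp1 was lower in the KO library in 13 of 13 groups (median log2 ratio of KO to WT -0.71, range -1.90 to -0.22), and in 9 of them the interval lay below 0. Once each group's median over all genes was subtracted it was still lower in 13 of 13, with a median of -0.69 and a range of -1.62 to -0.19. The largest differences were in the Gm26917 Gm42418 cluster (70.1 against 261 CPM, 6 against 149 UMIs, -1.90), B-like cells (25.4 against 76.4, 10 against 59 UMIs, -1.59) and T-like cells (72.8 against 197, 38 against 277 UMIs, -1.44), the 3 groups in which it was called lower. The background was high in these groups, with 23.5%, 9.89% and 16.3% of genes called lower. In the Gm26917 Gm42418 cluster the median mitochondrial share was 4.86% in WT and 7.16% in KO. There the resident macrophage markers went from 4808 CPM in WT to 2735 in KO, neutrophil markers from 897 to 468 and stromal markers from 133 to 152. In B-like cells neutrophil markers went from 952 to 22.8 CPM and mature dendritic cell markers from 1212 to 1333. Their part in the differences of these 2 groups was not tested. The B-like value turned to 2.34 when each library was clustered alone, since the KO plasma-like cells then fell among the B-like cells. In T-like cells the summed level of 10 markers of natural killer or innate lymphoid cells was 10949 CPM in WT and 425 in KO, with 6 of them lower and 3 higher in KO and Klra8 at 0 in both libraries and Ncr1 in KO, and their part in the difference was not tested. The antigen-presenting and phagocytic cells gave smaller differences. In cDC1-like cells Xbp1 stood at 86.0 against 165 (378 and 169 UMIs, -0.94, -1.21 to -0.67), in cDC2-like cells at 96.8 against 155 (-0.68), in the Plet1 Tbc1d4 cluster at 56.6 against 111 (-0.97), in resident macrophage-like cells at 126 against 178 (-0.50) and among inflammatory monocyte-like cells at 130.0 against 167 (-0.36). In single inflammatory monocyte-like clusters the ratio was -1.24, -0.75 and -0.09. Markers of other types moved within the cDC2-like class too, those of inflammatory monocytes from 2490 CPM in WT to 869 in KO (9 of 10 lower) and those of mature dendritic cells from 780 to 1492 (6 of 9 higher), with none at 0 in either library. Within cDC1-like cells the same lists went from 1328 to 687 (5 of 10 lower) and from 312 to 729 (6 of 9 higher), with Vcan at 0 in WT. In the same cells neutrophil markers went from 19.6 to 298 CPM (8 of 10 higher, with Ly6g and Camp at 0 in both libraries and Cxcr2, Mmp9 and Lcn2 at 0 in WT) and resident macrophage markers from 107 to 383 (10 of 10 higher). Within inflammatory monocyte-like cells, resident macrophage markers went from 5393 CPM in WT to 2974 in KO (8 of 10 lower) and neutrophil markers from 453 to 1687 (9 of 10 higher), with Ly6g and Camp at 0 in WT. In the Plet1 Tbc1d4 cluster inflammatory monocyte markers went from 1497 to 850 CPM and resident macrophage markers from 442 to 127. Mature dendritic cell markers there went from 1442 to 1828. The part of these markers in any difference given here for these cells was not tested. With cells thinned to 1000 UMIs, 12.1% of 66 WT and 9.85% of 203 KO cDC1-like cells had an Xbp1 UMI, and with cells thinned to 2000 UMIs 34.8% of 66 and 14.9% of 202.

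Immunoglobulin RNA was also lower in the KO library, but its fall did not follow that of Xbp1 from group to group. In natural killer-like cells it went from 1787 CPM in WT to 21.8 in KO, beside an Xbp1 log2 ratio of -0.29. In cDC1-like cells it went from 991 to 99.7, beside -0.94. Outside B and plasma-like cells, immunoglobulin UMIs ranged from 923 to 19825 CPM over the WT groups and from 21.8 to 171 CPM over the KO groups, and of 11 plasma cell markers counted over those cells 10 were lower in KO, the defining Jchain from 313 to 5.46, Igha from 1611 to 15.5 and Igkc from 1993 to 16.6 CPM, while Irf4, which dendritic cells also express, was higher (53.0 to 106). Of the 10, some fell little: Prdm1 from 71.2 to 64.6, Fam46c from 197 to 170 and Ighm from 80.0 to 56.2 CPM. Tnfrsf17 held 14 UMIs in WT and 3 in KO. None of the 11 markers was at 0 UMIs in either library. If the immunoglobulin RNA of a group came with Xbp1 at the ratio of WT plasma-like cells, it would bring 106 of the 197 CPM of Xbp1 in WT T-like cells (53.6%), 91.4 of 261 in the Gm26917 Gm42418 cluster (35.0%) and 50.3 of 172 in eosinophil-like cells (29.2%), but 5.29 of 165 in cDC1-like cells (3.20%) and 6.89 of 155 in cDC2-like cells. With that amount subtracted, the log2 ratio was -0.35 in T-like cells, -0.22 in eosinophil-like cells (-0.71 before), -1.29 in the Gm26917 Gm42418 cluster, -0.90 in cDC1-like cells and the Plet1 Tbc1d4 cluster, -0.62 in cDC2-like cells, -0.39 for resident macrophage-like cells and -0.28 for the inflammatory monocyte-like class. Leaving out the 39 WT cells outside these types in which immunoglobulin exceeded 5% of UMIs gave -0.83 in T-like cells, which were then no longer called.

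**Figure D4:**
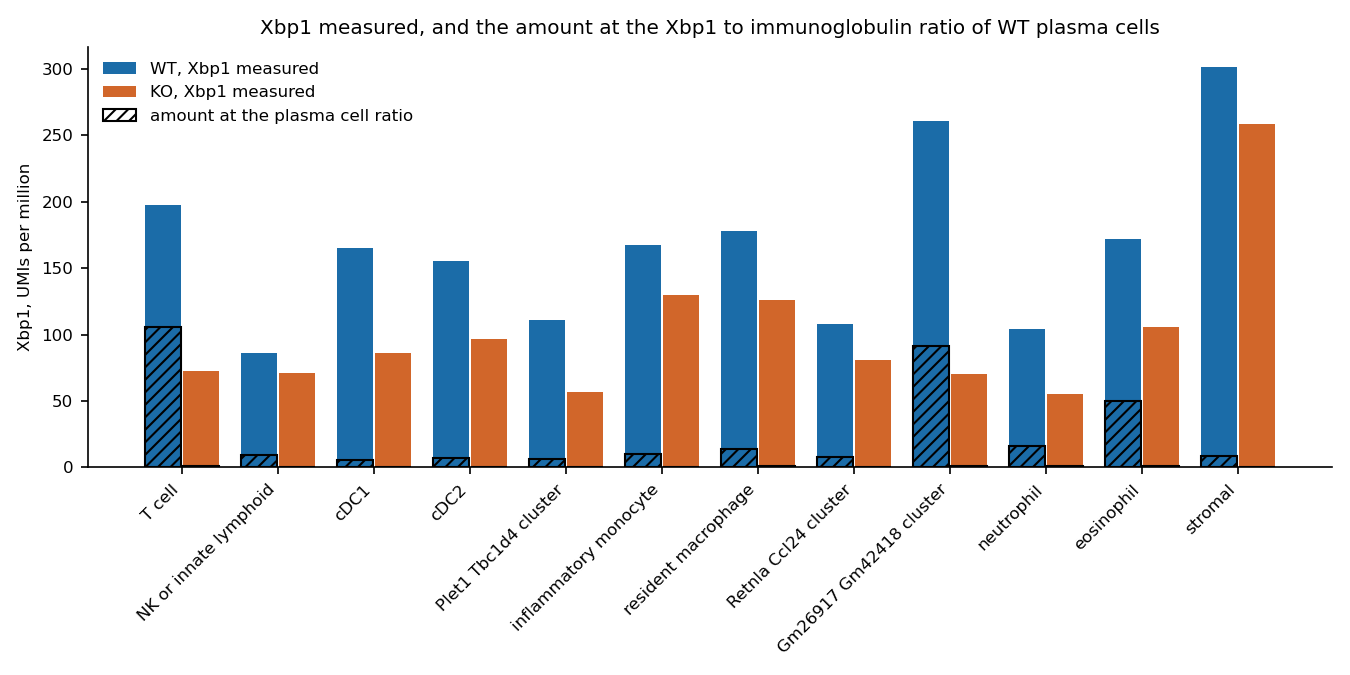
Bars show Xbp1 in CPM for the 12 groups outside B and plasma-like cells compared between libraries (WT blue, KO orange); the hatched part is the amount that the group's immunoglobulin RNA would bring at the Xbp1 to immunoglobulin ratio of WT plasma-like cells. The hatched part is 106 of 197 in WT T-like cells and 5.29 of 165 in WT cDC1-like cells, and the KO bar is the lower of each pair.

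Sdf2l1 was higher in KO in dendritic and monocytic classes, below the size of a call, and Trib3 in the dendritic classes on few UMIs. Sdf2l1 held at least 20 UMIs in 7 groups and its interval lay above 0 in 4 of them. It stood at 123 in KO against 78.3 CPM in WT in cDC1-like cells (540 and 80 UMIs, log2 ratio 0.65, 0.31 to 1.01), 99.6 against 53.0 in cDC2-like cells (0.91, 0.58 to 1.26), 40.0 against 24.3 in inflammatory monocyte-like cells (0.72, 0.30 to 1.15) and 73.4 against 50.1 in the Plet1 Tbc1d4 cluster (0.55, 0.12 to 1.00). None of these reached the threshold for a call. The single call was lower, in T-like cells, on 4 KO and 30 WT UMIs (-1.48) with an interval that reached above 0. By cluster, the cDC1-like difference was 1.09 in one and 0.23 in the other, and the inflammatory monocyte-like difference 0.96, -0.01 and 1.78. Trib3 could be compared in 3 groups and was called higher in KO in 2 of these, in cDC1-like cells with 51 against 4 UMIs (11.6 against 3.91 CPM, 1.57, 0.12 to 3.50) and in cDC2-like cells with 52 against 3 UMIs (9.15 against 1.92, 2.26, 0.63 to 4.58), where 4.93% and 3.73% of all genes were called higher. Neither was called with 10 CPM added to each side (0.64 and 0.68). By cluster, the Trib3 level in cDC1-like cells was 15.3 against 1.77 CPM in one (28 and 1 UMIs) and 8.96 against 6.56 in the other (23 and 3 UMIs). KO cDC1-like cells were also deeper, with a median of 20790 against 15622.5 UMIs.

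The lists of the pathway in those cells were read beside the share of all genes called. In cDC1-like cells 4 of 25 ATF4 and CHOP targets were called higher in KO and 1 lower, namely the cystine transporter Slc7a11 (274 against 46.0 CPM, 2.57), the transcription factor Atf3 (479 against 153, 1.65) and Ddit4 (1.45) among the higher and Phgdh (-1.24) the lower, and 0 of 19 ER chaperones were called, beside 4.93% of all genes called higher and 3.63% lower. The neutrophil and resident macrophage markers that were higher in KO cDC1-like cells are given above, the target list summed to 15494 CPM in KO neutrophil-like cells, and their part in these calls was not tested. In cDC2-like cells 1 of 26 targets was called higher, Slc7a11 (603 against 200, 1.59), and 0 of 19 chaperones, with Manf at 0.93 and Ppib at 0.77, beside 3.73% of all genes called higher and 4.41% lower. In inflammatory monocyte-like cells 2 of 25 targets were called higher, 1 lower, with Nupr1 at 1.15 and Slc7a11 at 1.05 (1340 against 649), beside 2.91% and 7.32% of all genes. Resident macrophage-like cells had 1 of 21 targets called higher, Atf3 (869 against 335, 1.38), 2 lower, and 3 of 19 chaperones lower, Txndc5 (-1.22), Txndc11 (-1.21) and Hyou1 (-1.17), beside 3.44% of all genes called higher and 8.6% lower. Of the eIF2α kinases and related factors none was called higher in these 4 classes, and called lower were 3 of 11 in cDC2-like cells (Eif2b5 at -1.37, Eif2b4 at -1.12 and Eif2ak2 at -1.07), 1 of 11 in cDC1-like cells (Eif2ak2, -1.19), 2 of 9 in resident macrophage-like cells (Eif2ak1 at -1.11 among them) and 0 of 11 in inflammatory monocyte-like cells. Outside these 4 classes the ER chaperones went both ways. In stromal-like cells 7 of 15 were called higher in KO and 0 lower, beside 8.8% and 12.1% of all genes. The Retnla Ccl24 cluster had 4 and 0 of 19, beside 12.3% and 9.62%. T-like cells had 0 and 5 of 19, beside 3.84% and 16.3%, and neutrophil-like cells 1 and 4 of 10, beside 6.45% and 13.3%. The Gm26917 Gm42418 cluster had 1 and 4 of 15, beside 9.27% and 23.5%.

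Ddit3, the death-linked factor CHOP, was lower in KO in 10 of 13 groups, with the interval below 0 in 6. The ratio was -0.98 in neutrophil-like cells (166 against 329 CPM) and in the Plet1 Tbc1d4 cluster, -0.89 in cDC2-like cells (34.1 against 63.2), -0.79 in T-like cells, -0.60 for resident macrophage-like cells and -0.39 for the inflammatory monocyte-like class. With each library clustered alone the neutrophil-like ratio was 0.08. Within neutrophil-like cells the neutrophil markers summed to 46957 CPM in WT and 83743 in KO (9 of 10 higher) and the resident macrophage markers to 1138 and 437 (6 of 10 lower, with Mrc1 and Cd163 at 0 in WT), and their part in the differences of this class was not tested. The monocyte-like clusters gave 0.11, -0.72 and 0.51, each with an interval that included 0, and of the T-like clusters one gave -2.59 on 2 KO and 21 WT UMIs and the others -0.04 and -0.94, with intervals that included 0. Its single call, in the Gm26917 Gm42418 cluster (-1.04), rested on 4 KO UMIs with an interval reaching above 0. Atf4 itself had no common direction, higher in 7 groups and lower in 6 (median 0.03), from -0.83 in neutrophil-like cells (330 against 584 CPM) to 0.33 in natural killer-like (685 against 545) and B-like cells (769 against 614). Hspa5 was lower in 9 of 13 groups, each with the interval below 0, but by little (median -0.24), and after each group's median over all genes was subtracted it was lower in 7. Herpud1 was lower in 9 of 13 groups, its interval lay below 0 in 6, and it was called lower in stromal-like cells on 9 against 52 UMIs (-1.50), where 12.1% of genes were called lower.

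Ppp1r15a and Dnajb9 differed in direction between groups. Ppp1r15a was higher in KO in 4 of 13 groups (interval above 0 in 3) and lower in 9 (interval below 0 in 6). Dnajb9 was higher in 6 (interval above 0 in 3) and lower in 7 (interval below 0 in 2). Ppp1r15a stood at 1815 in KO against 962 CPM in WT in resident macrophage-like cells (1877 and 1646 UMIs, log2 ratio 0.92, 0.82 to 1.01) and was also higher in the Gm26917 Gm42418 cluster (0.64) and cDC1-like cells (0.31). It was lower in neutrophil-like (1700 against 2567, -0.60) and B-like cells (-0.60), in the Plet1 Tbc1d4 cluster (-0.59) and, as a call, in stromal-like cells (22 against 110 UMIs, -1.29). The dissociation-linked genes summed to 17315 in KO and 14934 in WT in resident macrophage-like cells and to 16148 and 24921 in neutrophil-like cells. The sums were 7646 and 10722 in B-like cells, 6842 and 9916 in the Plet1 Tbc1d4 cluster and 9643 and 8417 in cDC1-like cells. They were 16705 and 15860 in the Gm26917 Gm42418 cluster and 7353 and 7539 in stromal-like cells. The part of the dissociation-linked genes in these differences was not tested. Dnajb9 was higher in KO in resident macrophage-like cells (317 against 221, 0.52, 0.30 to 0.73), in eosinophil-like cells (0.84, 0.20 to 1.54) and in inflammatory monocyte-like cells (0.27), and lower in the Plet1 Tbc1d4 cluster (-0.65) and cDC2-like cells (-0.31). Within resident macrophage-like cells, inflammatory monocyte markers went from 1005 CPM in WT to 348 in KO (8 of 10 lower, none at 0) and neutrophil markers from 383 to 822 (4 of 10 higher and 4 lower, with Ly6g and Camp at 0 in both libraries and Lcn2 in KO). The median mitochondrial share was 3.24% in WT and 5.45% in KO, and the part of these in the Ppp1r15a, Dnajb9 and Atf3 differences was not tested. The resident macrophage-like values depended on the cells counted. With a stricter cell filter Ppp1r15a gave 0.44 and Dnajb9 0.13, with each library clustered alone 0.27 and -0.14, and in the low-depth cluster of this class (35 KO cells) Ppp1r15a gave -1.14 on 7 and 34 UMIs.

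**Figure D5:**
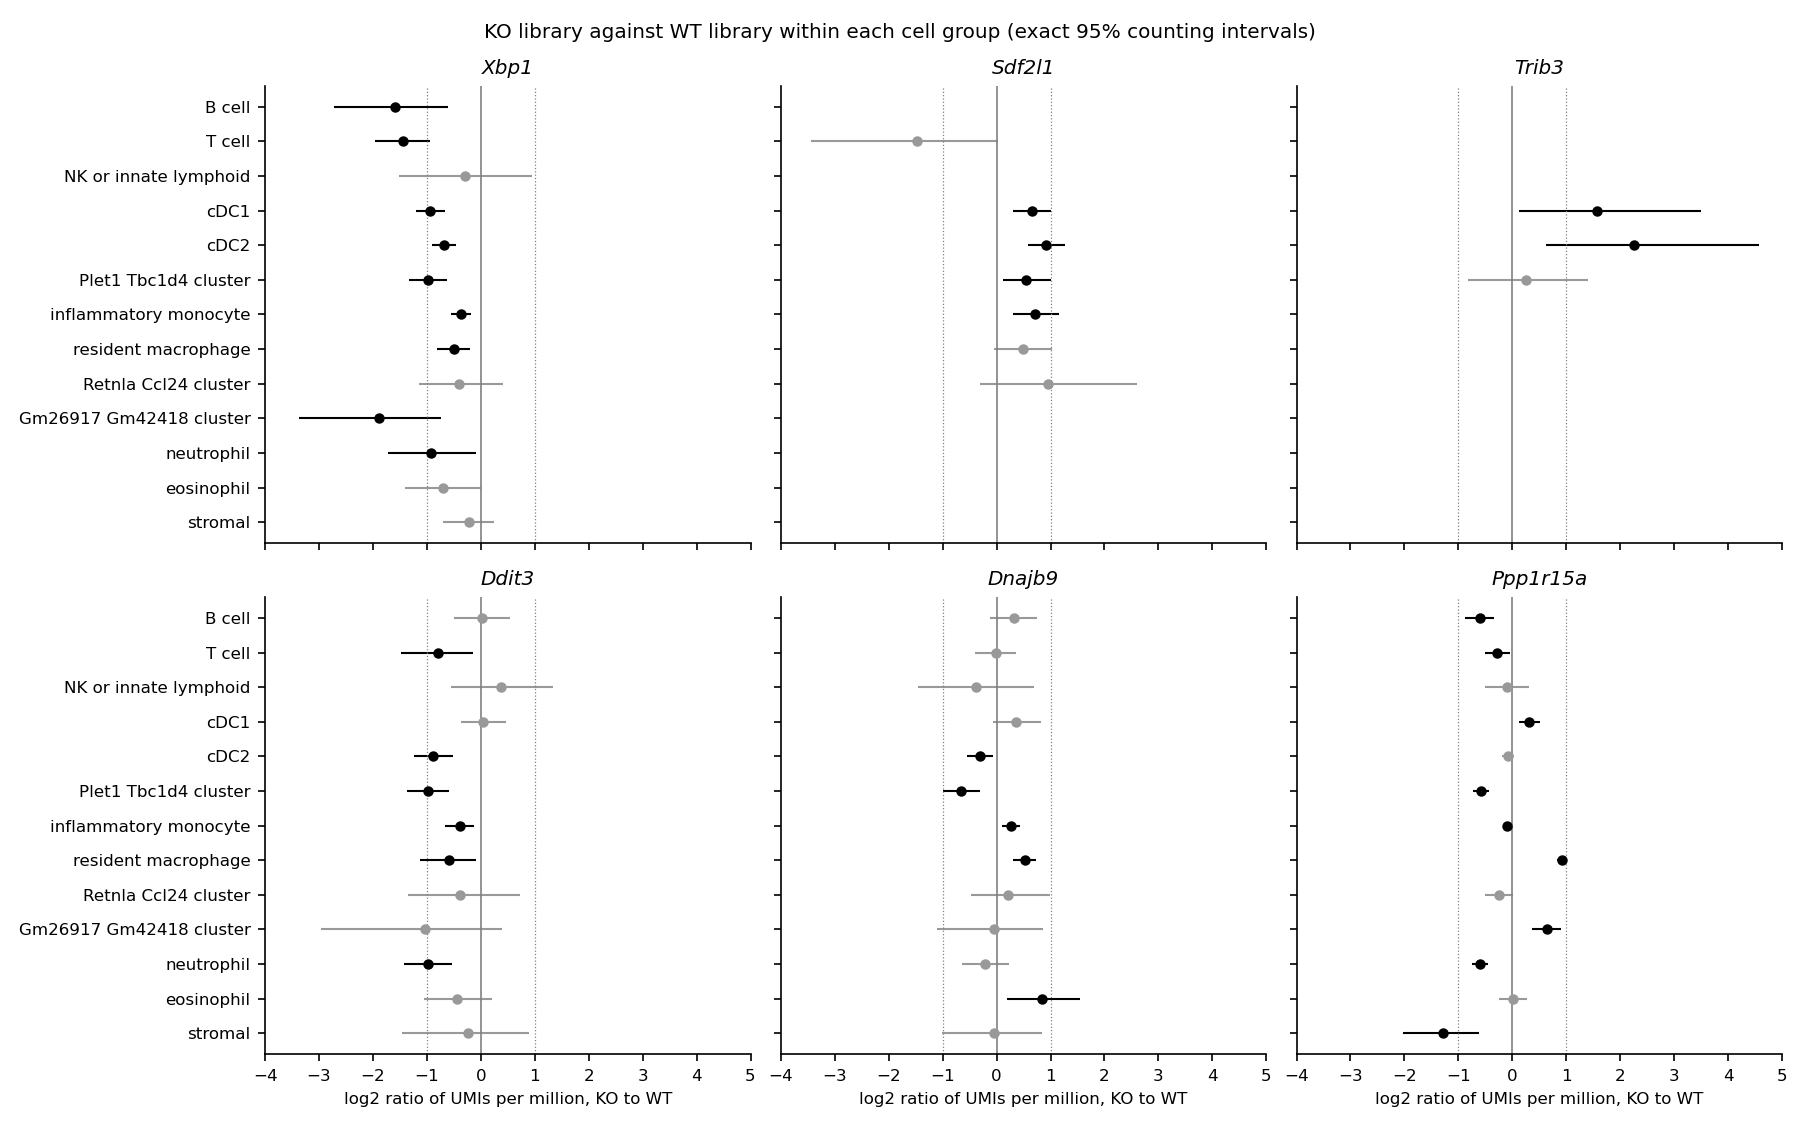
Log2 ratio of CPM, KO library to WT library, for 6 of the genes within each cell group in which the gene held at least 20 UMIs; bars are exact 95% counting intervals, black where they exclude 0 and grey where they do not, and dotted lines mark 1 and -1. Every Xbp1 point lies left of 0, 6 of 7 Sdf2l1 points and all 3 Trib3 points lie right of 0, and Ppp1r15a points lie on each side.

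The genes most like each member were found by Pearson's r of log2 levels over the 30 sums of a cell group in a library. The search covered 6906 genes with at least 500 UMIs, or 6907 for Trib3, which itself held 223 UMIs. It is a description of sums that share 2 libraries. Xbp1 was most like the signal peptidase subunit Spcs1 (0.87), the signal peptide peptidase H13 (0.83) and Txndc5 (0.80). Sdf2l1 was most like Sec61g (0.84), Ssr4 (0.81) and Sec61b (0.80), which encode parts of the protein channel of the ER membrane and its associated complex. Ppp1r15a was most like Csrnp1 (0.90), Nfkbiz (0.88) and Ier5 (0.87), genes known for rapid induction, and Trib3 most like Cars (0.74), Psph (0.69) and Cdv3 (0.69), the former pair an aminoacyl-tRNA synthetase and an enzyme of serine synthesis. For the others the first of the 3 genes was Ints13 for Atf4 (0.81), Il16 for Ddit3 (0.83), Spty2d1 for Hspa5 (0.81), Dok3 for Dnajb9 (0.76) and Fam46c for Herpud1 (0.74), the last of which was among the plasma cell markers used for naming. Between members, r ran from -0.47 for Ddit3 and Sdf2l1 to 0.64 for Dnajb9 and Ppp1r15a.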

How the data were processed

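The authors deposited raw UMI counts per gene and barcode for each library, written by Cell Ranger (matrix header 3.0.2); the submitters' processing notes name mm10 and Seurat 4. The counts were used as deposited. Cells with 200 to 6000 genes and at most 15% mitochondrial UMIs were kept, as in the study, and no doublet caller was run. The study's clustering tool, DESC, was not used; Leiden clusters (resolution 1, 2000 variable genes without the 9 genes and the pathway lists, 30 components, 15 neighbours) were named from at least 3 raised markers of 141. The cluster led by Gm26917 and Gm42418 was left unnamed after the first clustering was seen. UMIs were summed per group and library. Levels are CPM (UMIs per 1000000 UMIs of the group) with exact Poisson intervals, shares of cells were thinned to 1000 UMIs, and ratios have exact conditional binomial intervals. A gene was called at 20 UMIs over both sides and a log2 ratio of at least 1, with 1 CPM added to each side. The call rule and the ratio intervals were tested on Poisson counts simulated from the inflammatory monocyte-like class. Clustering and naming were not tested in this way, and no spread between cells or libraries was simulated. The genes, lists and rules were chosen with earlier results of these data known. List genes are named by the largest ratios (up to 4, at least 50 UMIs, interval excluding 0), and like genes by the 3 highest r of log2(CPM + 10). Alternatives were other scalings, cell weights, filters, clusterings, minimums and depths. Python 3.11.15, scipy 1.17.1, scikit-learn 1.9.0 and leidenalg 0.10.2 were used.

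Promoter sequences were RefSeq's (GRCm38.p6). By the genes' own annotated coordinates (GENCODE M21 as given in the reference), Atf4 lies at chr15:80255184-80257541, Ddit3 at chr10:127290774-127296288, Xbp1 at chr11:5520659-5525893, Hspa5 at chr2:34771970-34777547, Herpud1 at chr8:94386438-94395377, Trib3 at chr2:152337422-152344032, Dnajb9 at chr12:44205559-44210326, Sdf2l1 at chr16:17130138-17132383 and Ppp1r15a at chr7:45522916-45526268. None overlapped another gene on the same strand. Ddit3 (Gm4189 and Mars), Herpud1 (Gm15890), Dnajb9 (Mir5627) and Ppp1r15a (Tulp2) overlapped genes on the opposite strand.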

Additional observations from a re-analysis of the deposited data

Results flagged for a closer look

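For 4 genes the difference of KO from WT lay in opposite directions in a pair of cell groups, with both counting intervals excluding 0. The difference between the groups was not tested, since each rests on the same 2 libraries. Atf4 had a log2 ratio of -0.83 in neutrophil-like cells and 0.33 in B-like cells. Hspa5 had -0.58 in eosinophil-like cells and 0.12 in resident macrophage-like cells. Dnajb9 had -0.65 in the Plet1 Tbc1d4 cluster and 0.84 in eosinophil-like cells. Ppp1r15a had -1.29 in stromal-like cells and 0.92 in resident macrophage-like cells.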

How the results depend on the processing

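Over 83 single values and 828 alternatives, 687 kept their size within counting error, 140 moved further and 1 called value changed sign. That value, Xbp1 in B-like cells, went from -1.59 to 2.34 (log2 ratio of KO to WT) with each library clustered alone, where all 5 KO plasma-like cells fell among the 90 KO B-like cells. A change of sign was counted for called values alone. Values below the size of a call also changed sign in places, and these are counted with the others. An example is Ddit3 in neutrophil-like cells, KO to WT, with each library clustered alone. The 4 calls higher in plasma-like cells kept their number under every alternative, whereas the call lower went from 1 to 0 without immunoglobulin and mitochondrial genes. In WT neutrophil-like cells the calls higher were 2 in place of 3 under that scaling and with each library clustered alone (Dnajb9 at 0.46), and in KO 2 by the mean over cells (Dnajb9 at 0.84). Of 90 pairs of a gene and a named class, 77 held enough UMIs for a call and 2 were called higher in KO and 5 lower, beside 4.61% and 8.37% of all pairs of any tested gene and class. The count of those called higher was 4 relative to the median of all genes, 1 and 4 at Leiden resolutions 0.5 and 2, 5 with each library clustered alone (of 81 pairs) and 0 with 10 CPM added to each side; the cause was not tested. Pairs called lower stayed between 4 and 6 (main count 5). Xbp1 stayed below 0 in cDC1-like cells, from -1.03 to -0.77. The alternatives on immunoglobulin-rich cells, subtracted Xbp1, single clusters and the Gm26917 Gm42418 cluster were chosen after seeing the data. Counts under 20 UMIs limit Trib3 and Sdf2l1 to a few groups, and no interval covers the spread between animals. No paired analysis was possible because there was 1 library per genotype.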
